A study of Drosophila melanogaster and Drosophila simulans and Drosophila yakuba with 8 samples.

Results

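Chromosome 4 of Drosophila melanogaster, the small dot chromosome, was followed here through its protein-coding genes in adult testis. Of 80 protein-coding genes that the reference annotation places on chromosome 4, 4 were left out (RpS3A, eIF4G1, ATPsynbeta and bt), and 66 of the remaining 76 had their identifier among the 15178 genes listed in each file. The other 10, among them JYalpha, CaMKII, PMCA, apolpp and dati, were not analysed here. The 66 genes were chosen by position and by the match of identifiers, and not by a threshold on expression. They were sorted by lists of roles, and a gene in no list may still have one of these roles. The lists held 11 genes of DNA-binding transcription factors, 5 of transcription cofactors and chromatin proteins and 3 of RNA decay and translation repression. They also held 3 of ligands of the TGF-beta family, 5 of guidance ligands and receptors and 8 of synaptic, channel and transporter proteins. Another 10 were of signalling, cytoskeleton and trafficking proteins and 4 of metabolism and repair. The other 17 genes were in no list.

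Chromosome 4 is unusual among the fly autosomes because its gene-bearing region lies within repeat-rich chromatin that carries heterochromatin proteins, although most of its genes are transcribed. Heterochromatin protein 1a (HP1a) and the histone methyltransferase encoded by egg, with its partner wde, act over much of the chromosome. The protein of Pof binds the transcribed genes of chromosome 4 and is known to raise their output, whereas HP1a is known to hold it down.

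Messenger RNA of dissected testes from adults of 1 to 7 days was sequenced in 3 groups of 2 libraries each. The groups were wildtype, nosGal4>>UAS-Zeus-RNAi (Zeus knockdown) and nosGal4>>UAS-Caf40-RNAi (Caf40 knockdown), and the strain label was Oregon-R for all of them. The driver nos-Gal4 acts in germ cells, so the somatic cyst, hub and sheath cells of the same testes were not its targets, and a driver-only control library was not analysed here. Caf40, the gene Rcd-1, encodes a subunit of the CCR4-NOT complex, which shortens poly(A) tails, and Zeus, the gene Rcd-1r, is a retrotransposed copy of it.

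Reads assigned to genes numbered between 12662615 and 24429722 per library, and 3 reads on 1 kb of exon amounted to 0.120 to 0.232 RPKM (reads scaled to exon length and to the library's mapped reads). Each targeted gene was low in its own knockdown, and the Zeus gene was high in the Caf40 knockdown. Rcd-1r measured 22.2 and 26.4 RPKM in the wildtype libraries and 4.05 and 4.04 in the Zeus knockdown. In the Caf40 knockdown Rcd-1r measured 134.5 and 113.8 RPKM (log2 fold change 2.12, SE 0.10, adjusted p = 2.56e-10 with edgeR's quasi-likelihood test). Rcd-1 measured 98.2 and 95.1 RPKM in wildtype, 79.3 and 77.9 under Zeus knockdown, where it did not pass the test (-0.15, adjusted p = 0.197), and 25.7 and 23.3 under Caf40 knockdown. Whether the replicates were separate sets of flies is not said in the labels, so the p-values speak only to the spread among these libraries, which may be technical. Markers of germ cells were present in every library, and the sums of their RPKM differed between the groups. The sum of 5 germ cell and spermatocyte markers, most of it bol (386 RPKM in wildtype replicate 1), was 489 and 473 RPKM in wildtype, 416 and 399 under Zeus knockdown and 242 and 252 under Caf40 knockdown. In the Zeus knockdown 2 of these 5 fell in the fit (bam and can) and 3 did not pass the test. Among these 3 was bol (log2 fold change -0.04, adjusted p = 0.806), so the lower sum there was not a called fall of bol. In the Caf40 knockdown 4 of these 5 fell (bol, twe, aly and can) and bam, which acts in spermatogonia, rose 9.34-fold. The sum of 4 spermatid markers was 4238 and 4360 RPKM in wildtype, 5472 and 5519 under Zeus knockdown, where 3 rose and 0 fell, and 3930 and 4542 under Caf40 knockdown, where 3 fell and 0 rose. The sum of 5 cyst and hub cell markers was 36.2 to 38.5 RPKM in the wildtype and Zeus knockdown libraries and 44.2 and 44.9 RPKM in the Caf40 knockdown, where tj and Fas3 rose, eya and upd1 fell and zfh1 did not pass the test. Fas3 alone went from 11.5 and 11.4 RPKM in wildtype to 19.7 and 20.5 RPKM there. The sum of 4 muscle sheath markers was 28.3 and 28.5, 33.5 and 43.8, and 66.1 and 45.8 RPKM in wildtype, Zeus and Caf40 knockdown. In each knockdown 3 of them rose and 1 did not pass the test. The sum of 5 accessory gland markers was 8.89 and 7.98, 14.1 and 12.2, and 1.91 and 2.18 RPKM. Of those tested, Mst57Db rose, Acp26Aa fell and Acp36DE did not pass in the Zeus knockdown. In the Caf40 knockdown 2 fell and 1 did not pass. In no list was a measured marker at 0 in all 6 libraries. The part of these differences in the results on chromosome 4 was not tested, and in such bulk samples fewer cells of a type and less RNA per cell cannot be told apart.

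In wildtype testis the 66 genes spanned a 1063-fold range of levels. Mean wildtype RPKM was lowest for zfh2 (0.0904), had a median of 4.99 and was highest for Arf4 (96.2). It was under 1 for 16 genes, from 1 to 5 for 17, from 5 to 20 for 16 and at least 20 for 17. No gene was without reads in all 6 libraries. The listed exon length had a median of 3353.5 bases, against 1579 bases for the other protein-coding genes.

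The 10 genes with the highest wildtype means held various roles. Arf4, a small GTPase of vesicle traffic, measured 94.2 and 98.1 RPKM in the wildtype libraries. Next came lgs, an adaptor of Wingless signalling, with 72.5 and 74.3 RPKM and Rad23, a shuttle factor of the proteasome that also acts in DNA repair, with 61.5 and 68.6 RPKM. CG11076 followed with 47.1 and 48.9 RPKM. These 4 genes did not overlap with each other in their wildtype values. After them, pho (36.5 and 37.95 RPKM), 4E-T (37.4 and 35.8), PIP4K (35.7 and 35.6) and MED26 (34.1 and 35.9) lay too close together to be ordered by 2 libraries. PlexA (29.6 and 29.4 RPKM) and Arl4 (28.3 and 29.8) closed the highest 10. Along the whole order, 35 of 65 neighbouring pairs had overlapping wildtype values.

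Several genes best known from the nervous system and from eye development were among the lowest. However, 4 of the 8 listed synaptic, channel and transporter genes were high enough to be tested. The 16 genes under a mean of 1 RPKM over the 6 libraries were not tested. Of these, 5 were in the list of transcription factor genes: ey and toy, the Pax6 genes of eye development, sv, onecut and zfh2. The gene ey measured 0.486 and 0.524 RPKM in wildtype and toy 0.225 and 0.224 RPKM. Another 4 were in the list of synaptic, channel and transporter genes (Syt7, mGluR, Gat and Ekar). Among them mGluR, the metabotropic glutamate receptor, measured 0.0960 and 0.117 RPKM in wildtype. The remaining 7 were Actbeta, Kif3C, NfI, CG1674, CG1909, CG32017 and CG33978. CG1909 stood out among the untested genes, with 0.332 and 0.358 RPKM in wildtype, 0.226 and 0.277 under Zeus knockdown and 1.14 and 1.06 under Caf40 knockdown. It is named here after its values were seen.

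**Figure D1:**
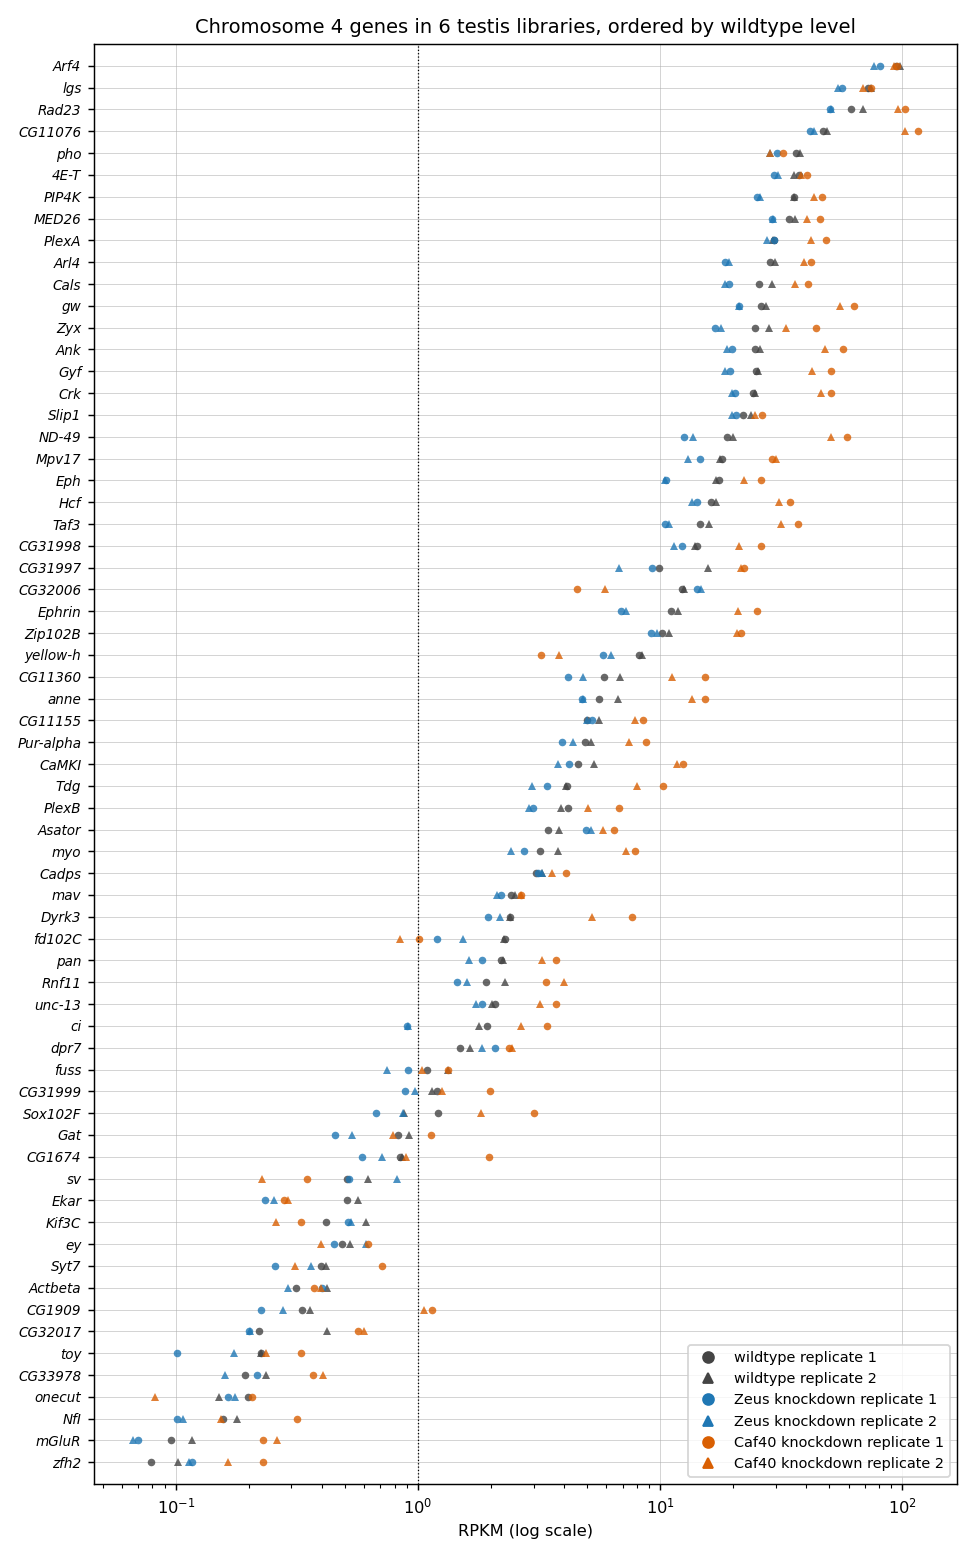
RPKM on a log axis of 65 of the 66 chromosome 4 genes in each of the 6 libraries, ordered by mean wildtype level, with a point per library coloured by group. Levels run from Arf4, with a wildtype mean of 96.2 RPKM, to zfh2 with 0.0904, and the Caf40 knockdown points lie above the wildtype points for most genes.

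Chromosome 4 genes took a larger share of the gene reads in the Caf40 knockdown and a smaller one in the Zeus knockdown. The 66 genes held 0.284% and 0.296% of the gene reads in the wildtype libraries, 0.232% and 0.228% under Zeus knockdown and 0.473% and 0.412% under Caf40 knockdown. The groups did not overlap. The share was 0.290 ± 0.00895% in wildtype, 0.230 ± 0.00306% under Zeus knockdown and 0.442 ± 0.0431% under Caf40 knockdown (SD, n = 2 each). The mean of the Caf40 knockdown was 1.52 times and that of the Zeus knockdown 0.793 times the wildtype mean. An exact permutation test of 2 libraries against 2 cannot go below p = 0.33, which all 3 pairs of groups reached (two-sided).

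The typical level of all protein-coding genes moved the same way. Their median RPKM was 6.49 and 6.68 in wildtype, 5.26 and 5.25 under Zeus knockdown and 11.01 and 10.04 under Caf40 knockdown, and that of the 66 chromosome 4 genes was 4.74 and 5.25, 4.18 and 4.58, and 8.19 and 7.34 RPKM. For this reason the fold changes below were fitted with library factors that allow for such shifts (TMM scaling, factors 0.881 to 1.19), and the position of chromosome 4 is given relative to all genes tested. RPKM values in the text carry no such factor, so a ratio of RPKM values exceeds the fitted change in the Caf40 knockdown and falls short of it in the Zeus knockdown. Of the 66 genes, 50 were tested among 10223 genes with a mean of at least 1 RPKM.

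Most chromosome 4 genes rose in the Caf40 knockdown, by small amounts. Of the 50 tested, 35 rose, 6 fell and 9 did not pass the test, with edgeR's quasi-likelihood test and an adjusted p under 0.05. Over all genes tested 41.9% rose and 38.6% fell, so that 80.5% were called, and the share of called genes on chromosome 4 was close to this while the direction was weighted to rises (70% rose, 12% fell). The median log2 fold change was 0.46 on chromosome 4, a fold of 1.37, and 0.06 over all genes tested. The values of 39 of the 50 lay above the all-gene median. They also lay close together: the middle 50% of chromosome 4 genes spanned 0.13 to 0.81, and that of all genes tested -0.71 to 0.85. In RPKM, both Caf40 knockdown libraries exceeded both wildtype libraries for 43 of the 50 genes and lay below both for 4, against 54.4% and 35.8% of all genes tested. Large changes were few, with 4 genes that rose at least 2-fold, against 20.6% of all genes tested, and 3 that fell at least 2-fold, against 17.4%.

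Other scalings changed how many genes were called each way. With libraries scaled to the same median RPKM, 20 chromosome 4 genes rose and 13 fell, because this scaling moved the median of all genes tested from 0.06 to -0.24. Scaling by total gene reads moved it to 0.28. Shares of all genes called under these scalings are not given here, so these counts cannot be set against the shares above. The chromosome 4 median minus the all-gene median was 0.40, a difference that scaling the libraries cannot change, since it shifts all genes alike. Of the 35 rises 26, and of the 6 falls 4, were called without any 1 library, and 20 and 4 under every alternative tried.

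The other chromosome arms gave different medians in the Caf40 knockdown. Among the protein-coding genes tested, the median log2 fold change was 0.22 on the X chromosome, where 47.3% rose, and 0.08 on 2R, 0.02 on 3R, 0.01 on 3L and -0.09 on 2L, where 37.6% rose. Over these arms together, 41.6% of 8758 protein-coding genes rose and 39.3% fell. In wildtype, the tested genes of chromosome 4 had median levels of 10.6 and 12.2 RPKM, between those of the X (9.30 and 9.5) and of the large autosome arms (13.2 to 16.1), and in the Caf40 knockdown they had 21.9 and 20.9 RPKM, against 14.2 to 21.4 RPKM on the other arms. No test of the difference between arms was made.

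**Figure D2:**
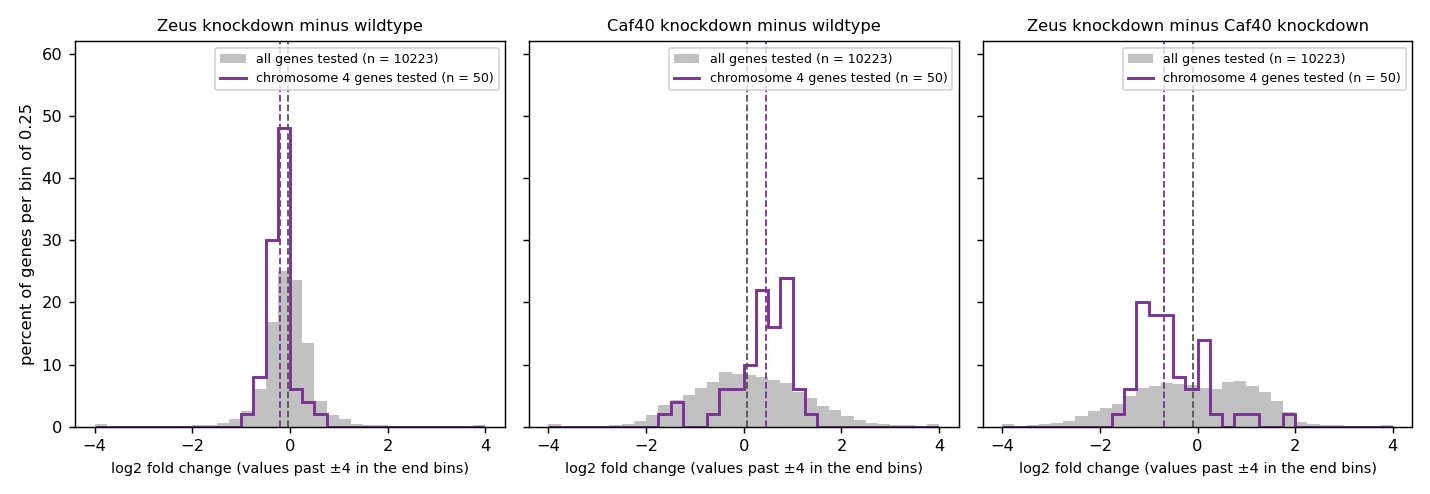
Percent of genes per bin of log2 fold change (0.25 wide) for the 50 chromosome 4 genes tested (purple outline) and all 10223 genes tested (grey), in each comparison, with dashed lines at the medians. Chromosome 4 medians lie at -0.21, 0.46 and -0.68, against -0.04, 0.06 and -0.08 for all genes.

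The difference from other genes in the Caf40 knockdown was largest among abundant genes. Of 17 chromosome 4 genes with a wildtype mean of 20 to 100 RPKM, 10 rose and 3 fell (58.8% and 17.6%), whereas 24.95% of the other genes of that level rose and 56.3% fell, and the medians were 0.26 and -0.34. From 5 to 20 RPKM, 14 of 16 rose, against 55.3% of the others, with medians of 0.64 and 0.38. From 1 to 5 RPKM, 11 of 17 rose, against 55.2%, and here the chromosome 4 median of 0.47 lay below that of the other genes, 0.59. Wildtype level and fold change share the wildtype libraries, and these values are a description without a test. Across genes, the rank correlation of log2 fold change with wildtype level was -0.16 over the 50 chromosome 4 genes and -0.42 over all genes tested.

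**Figure D3:**
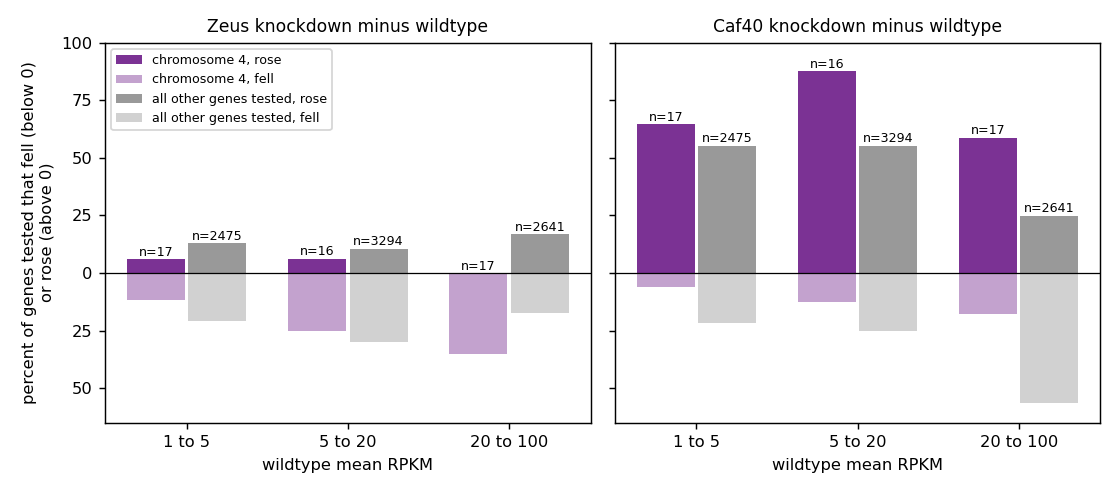
Percent of tested genes that rose (bars above 0) and fell (bars below 0) by class of wildtype mean RPKM, for chromosome 4 genes (purple) and all other genes tested (grey), with the number of genes above each pair of bars. In the Caf40 knockdown at 20 to 100 RPKM, 58.8% of chromosome 4 genes rose and 17.6% fell, against 24.95% and 56.3% of the other genes.

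The counts by role given next cover only the genes in each role list. They stand beside the all-gene shares of 41.9% rising and 38.6% falling in the Caf40 knockdown, and of 16.8% and 20.0% in the Zeus knockdown. No role was tested against these shares, and with few genes in each the counts are a description. Among 6 tested transcription factor genes 3 rose and 2 fell in the Caf40 knockdown, near the background. The gene ci, the transcription factor of Hedgehog signalling, measured 1.93 and 1.79 RPKM in wildtype, 0.904 and 0.910 under Zeus knockdown and 3.42 and 2.67 under Caf40 knockdown. The groups did not overlap, with the Zeus knockdown lowest and the Caf40 knockdown highest. Its fall in the Zeus knockdown was the largest on chromosome 4 (log2 fold change -0.89, SE 0.15, adjusted p = 0.000657), and its rise in the Caf40 knockdown (0.47, SE 0.13, adjusted p = 0.00505) was lost without Caf40 knockdown replicate 1 (0.33, adjusted p = 0.0570) and with same-median scaling (0.17, adjusted p = 0.251). Reads of ci and of an antisense gene on the other strand cannot be told apart, because the strand of the libraries is not stated.

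The forkhead gene fd102C fell most on chromosome 4 in the Caf40 knockdown. It measured 2.28 and 2.27 RPKM in wildtype, 1.20 and 1.53 under Zeus knockdown and 1.01 and 0.844 under Caf40 knockdown (fitted log2 fold change -1.53, SE 0.25, adjusted p = 4.36e-05, against wildtype). Both knockdowns lay below wildtype, and only the fall in the Caf40 knockdown passed the test (adjusted p = 0.0668 in the Zeus knockdown, log2 fold change -0.56). Its level in the Zeus knockdown exceeded that in the Caf40 knockdown (log2 difference 0.98, adjusted p = 0.00408), a call lost without Zeus knockdown replicate 2 (0.76, adjusted p = 0.0825).

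The gene pho, whose protein binds Polycomb response elements, was the most abundant of the transcription factor genes. It measured 36.5 and 37.95 RPKM in wildtype, 30.4 and 28.5 under Zeus knockdown and 32.3 and 28.5 under Caf40 knockdown, where it fell (log2 fold change -0.52, SE 0.09, adjusted p = 6.92e-05). The RPKM values of the knockdowns overlapped with each other. The fitted difference between the knockdowns (0.33, adjusted p = 0.00319) carried the library factors and reversed with total-read scaling (-0.05). It was also lost without Zeus knockdown replicate 1 (0.29, adjusted p = 0.0543). The gene pan, the TCF factor of Wingless signalling, rose from 2.20 and 2.25 RPKM to 3.73 and 3.26 RPKM in the Caf40 knockdown (0.41, adjusted p = 0.00260), a call lost with same-median scaling (0.11, adjusted p = 0.3329). Sox102F, a SoxD gene, rose from 1.21 and 0.875 RPKM to 3.0 and 1.83 RPKM (0.95, adjusted p = 0.00200).

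Of 5 cofactor and chromatin genes, 3 rose and 1 fell in the Caf40 knockdown, and 2 fell in the Zeus knockdown. Taf3, a subunit of the general transcription factor TFIID, measured 14.7 and 16.0 RPKM in wildtype, 10.4 and 10.9 under Zeus knockdown and 37.1 and 31.7 under Caf40 knockdown. It was lowest in the Zeus knockdown and highest in the Caf40 knockdown, without overlap (log2 fold change 0.93, SE 0.09, adjusted p = 2.87e-07 in the Caf40 knockdown, and -1.31 for Zeus minus Caf40 knockdown, adjusted p = 1.10e-08). Hcf, the fly homologue of host cell factor, rose from 16.2 and 17.0 RPKM to 34.2 and 30.9 RPKM (0.74, adjusted p = 3.05e-06). Pur-alpha, a single-stranded nucleic acid binding protein, rose from 4.89 and 5.20 RPKM to 8.76 and 7.46 RPKM (0.45, adjusted p = 0.0104), a call lost without wildtype replicate 1 (0.41, adjusted p = 0.0589) or Caf40 knockdown replicate 1 (0.38, adjusted p = 0.0567), and with same-median scaling (0.15, adjusted p = 0.339). The abundant gene lgs measured 74.4 and 68.9 RPKM in the Caf40 knockdown, which overlapped with wildtype, and its fitted fall of 0.27 on the log2 scale (adjusted p = 0.0188) was lost without any 1 of the wildtype and Zeus knockdown libraries (adjusted p up to 0.109) and with total-read scaling (-0.04). MED26, a Mediator subunit, did not pass the test in any comparison.

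The 3 genes of RNA decay and translation repression differed among themselves, with 2 rises in the Caf40 knockdown. The protein of gw, GW182, recruits the CCR4-NOT complex to targets of microRNAs. The gene measured 26.1 and 27.5 RPKM in wildtype, 21.2 and 21.2 under Zeus knockdown and 63.2 and 55.0 under Caf40 knockdown. The Caf40 knockdown lay above the other 4 libraries (log2 fold change 0.91, SE 0.09, adjusted p = 4.46e-07), and the Zeus knockdown lay below wildtype without passing the test (-0.19, adjusted p = 0.132). That value passed in other settings, at adjusted p = 0.00659 and 0.00585 without Caf40 knockdown replicate 1 or 2 and 0.00463 with total-read scaling.

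Gyf, whose human counterparts act in translation repression with a cap-binding protein, measured 24.9 and 25.3 RPKM in wildtype, 19.4 and 18.5 under Zeus knockdown and 50.6 and 42.2 under Caf40 knockdown (0.65, SE 0.10, adjusted p = 1.69e-05 in the Caf40 knockdown). Its fall in the Zeus knockdown was at the threshold (-0.26, adjusted p = 0.0499) and was lost without any 1 of the wildtype and Zeus knockdown libraries (adjusted p up to 0.339). The gene of the eIF4E transporter, 4E-T, measured 37.4 and 35.8 RPKM in wildtype, 29.5 and 30.7 under Zeus knockdown and 40.3 and 38.2 under Caf40 knockdown. It passed the test in neither knockdown (-0.13 and -0.13, adjusted p = 0.277 and 0.197), and its sign in the Caf40 knockdown turned with total-read scaling (0.09). With same-median scaling it was called as a fall there (-0.43, adjusted p = 0.000714). In the Zeus knockdown it was called as a fall with total-read scaling (-0.29, adjusted p = 0.0117) and with limma on log2(RPKM + 1) (-0.27, adjusted p = 0.0243).

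Ligands and receptors of cell communication rose or did not pass the test in the Caf40 knockdown, with 1 of 2 tested TGF-beta family ligands and 4 of 5 guidance genes rising. The ligand gene myo, myoglianin, measured 3.18 and 3.77 RPKM in wildtype, 2.74 and 2.42 under Zeus knockdown and 7.86 and 7.22 under Caf40 knockdown (0.89, SE 0.12, adjusted p = 7.88e-06). Its relative mav, maverick, measured 2.43 and 2.53 RPKM in wildtype and 2.66 and 2.67 in the Caf40 knockdown (-0.12, adjusted p = 0.492, and 0.10 with total-read scaling). With same-median scaling mav was called as a fall there (-0.42, adjusted p = 0.0238). Thus 1 ligand gene of the family rose and the other did not pass, and the third, Actbeta, lay at 0.289 to 0.421 RPKM in all libraries and was not tested.

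The ligand gene Ephrin and its receptor gene Eph were both lower in the Zeus knockdown. Ephrin measured 11.1 and 11.8 RPKM in wildtype, 6.89 and 7.25 under Zeus knockdown and 25.1 and 20.9 under Caf40 knockdown. Eph measured 17.5 and 17.0 RPKM in wildtype, 10.6 and 10.4 under Zeus knockdown and 26.1 and 22.1 under Caf40 knockdown. For both genes the 3 groups stood apart, with the Zeus knockdown lowest and the Caf40 knockdown highest. In the Zeus knockdown Ephrin fell by 0.54 on the log2 scale (SE 0.10, adjusted p = 0.00103) and Eph by 0.57 (SE 0.09, adjusted p = 0.000355), and both calls held without any 1 library. In the Caf40 knockdown Ephrin rose (0.77, SE 0.09, adjusted p = 2.07e-06). The rise of Eph there (0.25, adjusted p = 0.0186) was lost without wildtype replicate 1 or 2 (adjusted p = 0.0646 and 0.126) and reversed with same-median scaling (-0.05). The semaphorin receptor gene PlexA rose from 29.6 and 29.4 RPKM to 48.3 and 42.1 RPKM in the Caf40 knockdown (0.38, adjusted p = 0.00193), a call lost with same-median scaling (0.084, adjusted p = 0.452). PlexB rose there from 4.16 and 3.90 RPKM to 6.73 and 5.05 RPKM (0.30, adjusted p = 0.0192). That call was also lost with same-median scaling (0.00142, adjusted p = 0.990), and the change was 0.13 without Caf40 knockdown replicate 1.

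Synaptic, channel and transporter genes that were expressed in testis gave 3 rises among 4 tested in the Caf40 knockdown. Zip102B, a zinc transporter of the ZIP family, rose from 10.2 and 10.9 RPKM to 21.7 and 20.8 RPKM (0.78, adjusted p = 8.27e-07), and the synaptic vesicle priming gene unc-13 rose from 2.07 and 2.03 to 3.71 and 3.19 RPKM (0.52, adjusted p = 7.75e-05). Cals, the calsyntenin gene, measured 25.6 and 29.0 RPKM in wildtype, 19.3 and 18.6 under Zeus knockdown and 40.8 and 35.9 under Caf40 knockdown. Its rise in the Caf40 knockdown (0.26, adjusted p = 0.0213) was lost without wildtype replicate 1 or either Zeus knockdown library (adjusted p up to 0.234) and reversed with same-median scaling (-0.04). Cadps, another gene of vesicle priming, lay at 3.06 to 4.07 RPKM in all 6 libraries and passed no test.

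Of 9 signalling, cytoskeleton and trafficking genes, 6 rose and 1 fell in the Caf40 knockdown, and 1 rose and 3 fell in the Zeus knockdown, the latter near the background. Dyrk3, a protein kinase gene, measured 2.39 and 2.40 RPKM in wildtype, 1.95 and 2.18 under Zeus knockdown and 7.66 and 5.22 under Caf40 knockdown (1.18, SE 0.15, adjusted p = 3.21e-06). Ank, the ankyrin gene, rose from 24.7 and 25.7 RPKM to 57.0 and 48.1 RPKM (0.82, adjusted p = 1.55e-06), and Crk, an adaptor of SH2 and SH3 domains, from 24.3 and 24.6 RPKM to 50.7 and 46.0 RPKM (0.75, adjusted p = 1.14e-06). Arf4, the most abundant of the 66 genes in wildtype, measured 95.4 and 92.6 RPKM in the Caf40 knockdown, overlapping with wildtype. Its fitted fall (-0.26, adjusted p = 0.0119) was lost without wildtype replicate 2 (-0.24, adjusted p = 0.0825) and with total-read scaling (-0.04).

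Asator, a gene of the tau tubulin kinase family, was higher in both knockdowns. It measured 3.46 and 3.83 RPKM in wildtype, 4.95 and 5.20 under Zeus knockdown and 6.43 and 5.80 under Caf40 knockdown. No wildtype value reached those of either knockdown (0.63, SE 0.10, adjusted p = 0.000205 under Zeus knockdown and 0.52, SE 0.09, adjusted p = 0.000152 under Caf40 knockdown). The comparisons share the wildtype libraries, and the annotation has exons of CG33941 on the opposite strand of Asator. Arl4, a small GTPase gene, measured 28.3 and 29.8 RPKM in wildtype, 18.6 and 19.2 under Zeus knockdown and 42.0 and 39.3 under Caf40 knockdown. It fell in the Zeus knockdown (-0.47, SE 0.09, adjusted p = 0.00196), which held without any 1 library. Its rise in the Caf40 knockdown (0.25, adjusted p = 0.0168) was lost without wildtype replicate 1 or 2 (adjusted p = 0.113 and 0.0504) and reversed with same-median scaling (-0.05).

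Of 4 genes of metabolism and repair, 3 rose and 1 fell in the Caf40 knockdown. ND-49, a subunit of mitochondrial complex I, had the largest rise on chromosome 4. It measured 18.8 and 20.1 RPKM in wildtype, 12.5 and 13.7 under Zeus knockdown and 59.4 and 50.7 under Caf40 knockdown (1.27, SE 0.09, adjusted p = 9.26e-09). The Zeus knockdown lay below wildtype (-0.41, adjusted p = 0.00535), a call lost without wildtype replicate 2 (-0.37, adjusted p = 0.0653) or Zeus knockdown replicate 1 (-0.36, adjusted p = 0.0689). Tdg, a thymine DNA glycosylase gene, rose from 4.12 and 4.07 RPKM to 10.2 and 8.02 RPKM (0.92, adjusted p = 1.33e-06). Its exons overlap with those of 2 other annotated genes. Rad23 rose from 61.5 and 68.6 RPKM to 102 and 95.6 RPKM (0.38, adjusted p = 0.00151), a call lost with same-median scaling (0.075, adjusted p = 0.458). The gene yellow-h, of the yellow family, fell from 8.18 and 8.40 RPKM to 3.22 and 3.82 RPKM (-1.44, SE 0.15, adjusted p = 6.32e-07).

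Of the 12 tested genes in none of the role lists, 10 rose and 1 fell in the Caf40 knockdown. CaMKI, a calmodulin-dependent kinase gene, measured 4.58 and 5.31 RPKM in wildtype, 4.18 and 3.8 under Zeus knockdown and 12.4 and 11.7 under Caf40 knockdown (1.06, adjusted p = 2.56e-07). The gene anne rose from 5.57 and 6.71 RPKM to 15.4 and 13.5 RPKM (1.00, adjusted p = 2.19e-07). CG11076 measured 116 and 103 RPKM in the Caf40 knockdown, the highest level among the 66 genes there (0.96, adjusted p = 1.31e-07). Its exons overlap with those of ATPsynbeta on the opposite strand, and reads of these genes cannot be told apart.

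CG32006 went the other way from most of the chromosome. It measured 12.3 and 12.5 RPKM in wildtype, 14.1 and 14.8 under Zeus knockdown and 4.53 and 5.93 under Caf40 knockdown. The Zeus knockdown was highest and the Caf40 knockdown lowest, without overlap. It fell in the Caf40 knockdown (-1.45, SE 0.14, adjusted p = 1.66e-07) and rose in the Zeus knockdown (0.37, adjusted p = 0.0262), the latter call lost without any 1 of the wildtype and Zeus knockdown libraries (adjusted p up to 0.166).

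In the Zeus knockdown most chromosome 4 genes lay slightly below the typical gene and few passed the test. Of the 50 tested, 2 rose (Asator and CG32006), 12 fell and 36 did not pass, against 16.8% of all genes tested that rose, 20.0% that fell and 36.8% called either way. The share of falls, 24%, was near this background. The median log2 fold change was -0.21, against -0.04 over all genes, and the middle 50% of the genes spanned -0.33 to -0.06. The values of 41 of the 50 lay below the all-gene median. In RPKM, both Zeus knockdown libraries lay below both wildtype libraries for 44 of the 50 genes and above both for 3, against 57.1% and 22.8% of all genes tested. No gene changed by 2-fold or more, against 2.81% of all genes that rose and 3.06% that fell by that much. The difference of medians was -0.17.

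The 12 genes that fell were ci, Eph, Ephrin, Arl4, Zyx, ND-49, Cals, Taf3, PIP4K, PlexB, Gyf and lgs. Only ci, Eph, Ephrin and Arl4 kept the call without any 1 of the 6 libraries. The other falls were lost without single libraries. For Zyx, the zyxin gene of focal adhesions (-0.45, adjusted p = 0.00681), these were wildtype replicate 2 and Zeus knockdown replicate 1 (adjusted p up to 0.0991). For Cals (-0.38, adjusted p = 0.00774) and Taf3 (-0.37, adjusted p = 0.00822) they were wildtype replicate 2 and either Zeus knockdown library (adjusted p up to 0.136 and 0.113). For PIP4K, a phosphoinositide kinase gene (-0.33, adjusted p = 0.00812), and PlexB, a semaphorin receptor gene (-0.32, adjusted p = 0.0418), each of the 4 libraries ended the call (adjusted p up to 0.0868 and 0.216).

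The count of falls moved with single libraries. It was 4 without wildtype replicate 2, 5 and 6 without Zeus knockdown replicate 1 and 2, and 20 without either Caf40 knockdown library, whose spread entered the fit. With total-read scaling 31 genes fell and 1 rose, as the median of all genes tested moved from -0.04 to -0.20. The shares of all genes called in these settings are not given here. These counts therefore cannot be read against the all-gene shares above. Among abundant genes of 20 to 100 RPKM, 6 of 17 chromosome 4 genes fell and 0 rose, against 17.4% and 16.8% of the other genes. The medians there were -0.19 and 0.00. In the lower classes the shares of falls rest on few genes, and the chromosome 4 medians lay below those of the other genes. From 5 to 20 RPKM 4 of 16 fell (25%), against 29.9% of the others, with medians of -0.22 and -0.16. From 1 to 5 RPKM 2 of 17 fell (11.8%), against 20.8%, with medians of -0.23 and -0.13. Over the other arms, 17.1% of the protein-coding genes rose and 20.2% fell, with a median of -0.03.

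**Figure D4:**
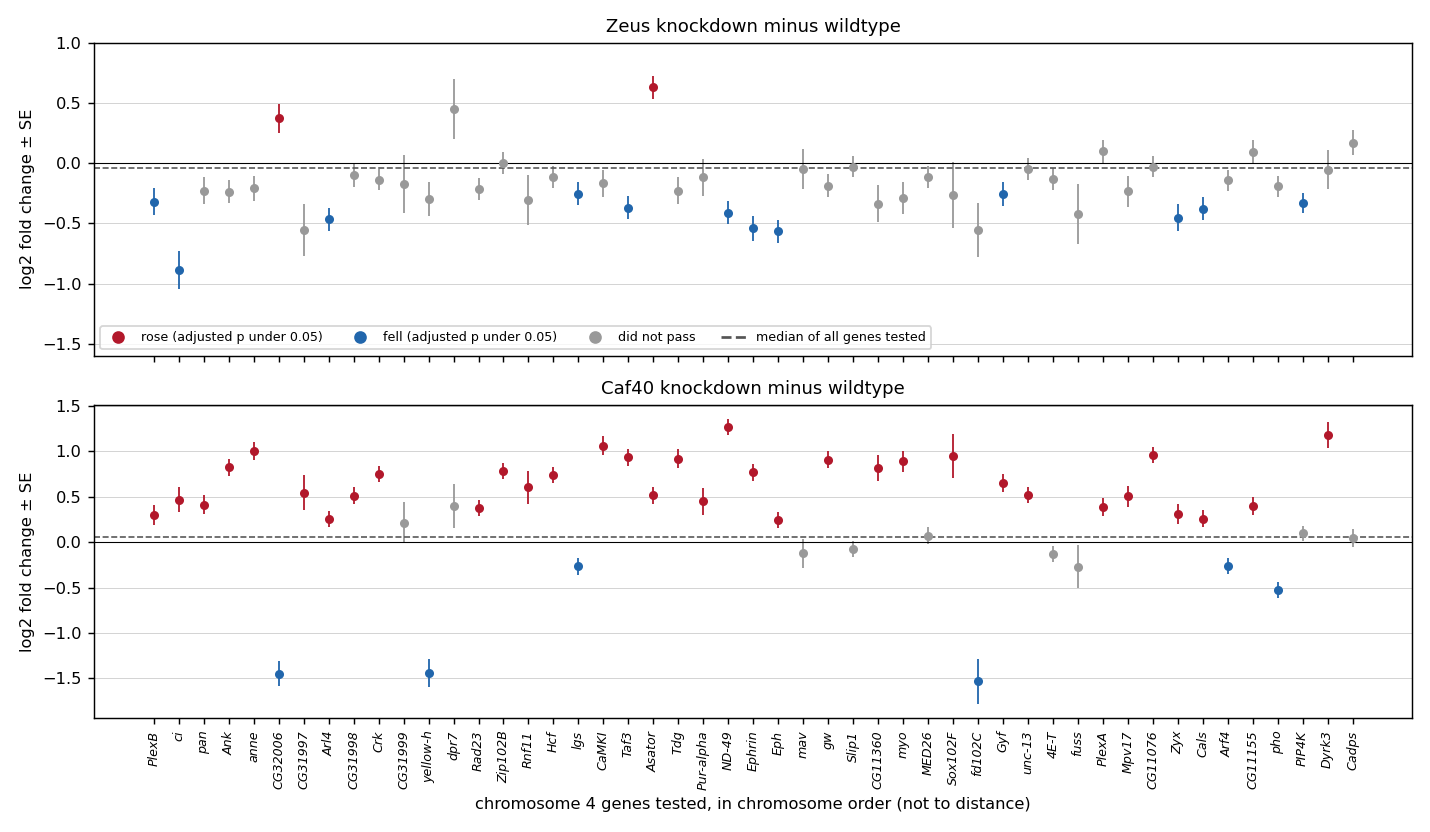
Log2 fold change with its standard error for 49 of the 50 chromosome 4 genes tested, in the order of the genes along the chromosome, for each knockdown minus wildtype, coloured by whether the gene rose, fell or did not pass the test, with a dashed line at the median of all genes tested. Values in the Caf40 knockdown lie mostly above 0 along the whole chromosome, with fd102C, CG32006 and yellow-h below -1, and values in the Zeus knockdown lie between -0.89 and 0.63.

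The rises in the Caf40 knockdown were spread along the chromosome. In the order of the genes, 13 of the first 17 tested, 12 of the middle 16 and 10 of the last 17 rose (76.5%, 75% and 58.8%), with medians of 0.47, 0.75 and 0.31. Over all genes tested 41.9% rose and 38.6% fell, shares beside which the counts by exon overlap below also stand. The genes that fell at least 2-fold did not neighbour each other. Exons overlapped with those of another annotated gene for 19 of the 66 genes, 15 of them tested. Among them were also yellow-h, Taf3, Cals, Zyx, PIP4K, PlexB and unc-13, each with an overlap on the opposite strand. Their reads cannot be told apart from those of the overlapping gene either. Of the 15 tested, 12 rose and 1 fell in the Caf40 knockdown, and of the other 35, 23 rose and 5 fell, with medians of 0.47 and 0.45.

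Compared directly, chromosome 4 genes were lower in the Zeus than in the Caf40 knockdown. Of the 50 tested, 35 were lower in the Zeus knockdown, 4 were higher and 11 did not pass the test, against 43.3% and 40.2% of all genes tested, of which 83.5% were called. The median log2 difference was -0.68 on chromosome 4 and -0.08 over all genes. With same-median scaling 26 were lower and 12 higher, counts without an all-gene share of that setting beside them. In RPKM, 46 genes were lower and 3 higher in the Zeus knockdown without overlap, against 57.5% and 35.2% of all genes tested. At least 2-fold differences were found for 14 genes that were lower, against 24.6% of all genes tested, and for 2 that were higher, against 20.7%. ND-49 had the largest difference (-1.68, SE 0.10, adjusted p = 9.58e-10), followed by ci (-1.36, adjusted p = 1.02e-06), Taf3 and Ephrin (-1.31 each). The 4 that were higher in the Zeus knockdown were CG32006 (1.82, SE 0.14, adjusted p = 1.56e-08), yellow-h (1.14, adjusted p = 1.15e-05), fd102C and pho.

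Reads across exon junctions made up a steady share of the reads of chromosome 4 genes. Among the tested genes of chromosome 4, the share was 2.31% and 2.36% in wildtype, 2.36% and 2.36% under Zeus knockdown and 2.23% and 2.32% under Caf40 knockdown. Over all genes tested it was 2.06% and 2.07%, 2.04% and 2.04%, and 2.31% and 2.30%. Chromosome 4 thus lay above the all-gene share in the wildtype and Zeus knockdown libraries and overlapped with it in the Caf40 knockdown, where the all-gene share was higher.

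Genes of the chromatin proteins that act on chromosome 4, themselves on other chromosomes, mostly rose in the Caf40 knockdown. Of 9 measured, 7 rose, 1 fell and 1, HP1b (0.14, adjusted p = 0.271), did not pass the test, and the share called was near that of all genes tested (80.5%). Pof measured 614 and 567 RPKM in wildtype, 619.7 and 615 under Zeus knockdown and 191 and 259 under Caf40 knockdown. It was the gene that fell (log2 fold change -1.61, SE 0.15, adjusted p = 1.22e-07, and -1.91 to -1.38 over the alternatives), and it did not pass in the Zeus knockdown (0.21, adjusted p = 0.260). This was a 3.06-fold lower level.

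Among the 7 that rose were the gene of HP1a and those of egg and wde. The HP1a gene measured 49.3 and 51.3 RPKM in wildtype, 41.4 and 41.8 under Zeus knockdown and 126 and 107 under Caf40 knockdown (0.98, SE 0.09, adjusted p = 1.20e-07). The histone methyltransferase gene egg measured 5.40 and 5.90 RPKM in wildtype, 3.61 and 4.18 under Zeus knockdown and 25.4 and 20.8 under Caf40 knockdown (1.80, SE 0.10, adjusted p = 1.03e-09). Its partner gene wde rose likewise from 8.78 and 9.15 RPKM to 44.4 and 37.3 RPKM (1.95, adjusted p = 4.79e-10). For these 3 genes the Caf40 knockdown lay above the other 4 libraries. The germline heterochromatin protein gene rhi rose from 1.57 and 1.29 RPKM to 14.2 and 11 RPKM (2.89, adjusted p = 3.28e-09). Su(var)3-7 (0.59), G9a (0.59) and HP1c (0.46) rose less, and the calls of G9a and HP1c did not hold under every alternative (adjusted p up to 0.0564 and 0.121). In the Zeus knockdown 4 of the 9 fell (egg, wde, Su(var)3-7 and G9a), by 0.36 to 0.41 on the log2 scale, and HP1c rose (0.33), against 20.0% and 16.8% of all genes tested. Each of these 5 calls was lost under at least 1 alternative (highest adjusted p = 0.165, 0.116, 0.0785, 0.293 and 0.242 for egg, wde, Su(var)3-7, G9a and HP1c). Bulk RNA levels of these genes do not measure their proteins on chromosome 4, and the part of these changes, or of the germ cell markers above, in the levels of chromosome 4 genes was not tested.

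**Figure D5:**
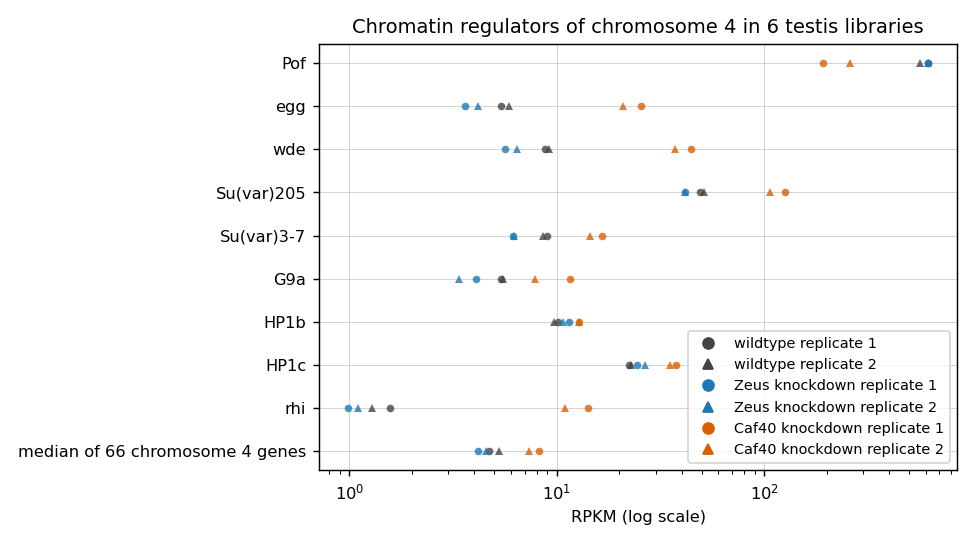
RPKM on a log axis of the 9 measured chromatin genes in each library, coloured by group, with the median of the 66 chromosome 4 genes in the lowest row. Pof is the one gene whose Caf40 knockdown values, 191 and 259 RPKM, lie below the wildtype values, and egg, wde, the HP1a gene and rhi lie above them.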

How the data were processed

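Per the labels, testis messenger RNA was sequenced as single-end Illumina libraries. The submitters' processing notes name Bowtie and the build dm3. The sources used here do not give the strand, other settings or the treatment of multiply matching reads. According to the file headers, the authors deposited whole-number counts per gene, the sum of genome and exon-junction reads, and an RPKM value scaled by exon length and mapped reads. The D. simulans and D. yakuba libraries were not used here.

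Identifiers were matched to the BDGP6 annotation (symbols for 12862, 84.7%), which served for names, chromosome and gene order; as the build differs, no coordinates are given. Counts were tested with edgeR 4.0.16 in R 4.3.3 (TMM scaling, quasi-likelihood test, two-sided, Benjamini-Hochberg adjustment over 10223 genes with a mean of at least 1 RPKM, threshold 0.05). The 3 groups of 2 libraries shared 1 estimate of the spread, with a biological coefficient of variation of 0.0747. Each standard error is the fitted log2 change divided by the root of its F statistic. The test was tried on data simulated with a constant spread and few changed genes, so that trial does not bear on scaling or error rates here. Replicates differed by more than counting noise, so none was counted as a repeat. Chi-square per degree of freedom was 4.96 for wildtype, 2.03 for Zeus knockdown and 13.8 for Caf40 knockdown, the most variable group. A spread shared by all groups may thus be too small for the Caf40 knockdown, whose p-values may then be too low. For Zeus knockdown against wildtype that spread may be too large. PCR reads are not independent molecules, so depth limits cover counting error only.

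The members, gene lists and rules were chosen with earlier results of these data known. The rule named, among genes past the threshold whose groups do not overlap and with 1 group averaging 2 RPKM or more, the 10 largest changes each way per knockdown and 6 each way between knockdowns, the 10 highest in wildtype, up to 4 with the smallest p per role, gw and JYalpha. Promoter motifs were planned and not run. The values of 1 gene, which stays in all counts, are not reported here. Alternatives were other scalings, DESeq2 1.42.0, limma 3.58.1 on log2(RPKM + 1), other filters, genome reads only, the compared groups only, a replicate block, and each library left out. Glia, fat body and neuron markers gave sums of at most 0.416, 2.65 and 14.2 RPKM.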

Additional observations from a re-analysis of the deposited data

How the results depend on the processing

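The alternatives tried kept the sign of the chromosome 4 median relative to all genes in every comparison, though library scaling, which shifts all genes alike, could not change it. That difference was 0.52 in the Caf40 knockdown and -0.76 for Zeus minus Caf40 knockdown with a filter of 5 RPKM, and leaving out 1 library each gave -0.19 to -0.14 (Zeus), 0.34 to 0.42 (Caf40) and -0.63 to -0.53 (between knockdowns). In the Zeus knockdown 1 gene rose with total-read scaling, the DESeq2 Wald test, limma or the filter of 5 RPKM, and 31 and 24 fell with total-read scaling and limma. Without 1 library, 1 to 2 rose and 4 to 20 fell. In the Caf40 knockdown same-median scaling gave 20 rises and 13 falls. No all-gene share of the same setting stands beside the counts of genes called in this paragraph. Between the knockdowns, 2 genes were higher in the Zeus knockdown with total-read scaling or limma and 12 with same-median scaling. With TMM library sizes the chromosome 4 share of reads was 0.261% (Zeus) and 0.385% (Caf40) and the median RPKM 5.08 and 6.92, and the Zeus junction share was 2.38% without a filter.

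Among the named genes, same-median scaling reversed Arl4 (-0.047), Cals (-0.044) and Eph (-0.053) in the Caf40 knockdown and PlexA between the knockdowns (0.12). Total-read scaling and limma reversed 4E-T (0.094 and 0.099) and mav (0.098 and 0.076) in the Caf40 knockdown and pho between the knockdowns (-0.051 and -0.044). For 85 results on 39 named genes, the alternatives other than single libraries gave 758 values on the same side of the threshold with the same sign, 52 that lost it, 8 that gained it and 10 reversals; leaving out single libraries gave 455, 53, 2 and 0. The causes were not tested beyond the shift of the all-gene median.

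The replicate numbers did not pair the samples (correlations of deviations -0.037, -0.052 and 0.022). With the replicate block, 2 genes rose and 11 fell against wildtype under Zeus knockdown, 35 and 6 did under Caf40 knockdown, and 4 and 35 between them; Gyf (-0.26, adjusted p = 0.0567) and lgs (-0.26, adjusted p = 0.0736) lost their Zeus calls. Members under 1 RPKM were tested only without a filter on low values. That setting gave 2 rises and 11 falls among 66 members under Zeus knockdown, and 38 and 8 under Caf40 knockdown. The counts of this paragraph also have no all-gene share beside them.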
